A study of Homo sapiens with 3 samples.

Results

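Gene-level RNA read counts from Caco-2 cells given dextran sulfate sodium (DSS) were compared with those from untreated cells of the same line. Caco-2 is a human colorectal carcinoma line whose cells can take on traits of intestinal absorptive cells, among them tight junctions and an apical brush border of microvilli. DSS is a large, negatively charged glucose polymer that injures the colonic lining of rodents given it to drink. In culture it also adds charged solute to the medium that bathes the cells. All cells carry the label wild type. The control cells were kept in a standard incubator, with no DSS. The second culture received 3% DSS for 8 h. The polydatin culture was given 30 µM polydatin, a plant stilbene glucoside, for 2 h and then polydatin with 3% DSS for 8 h. Each group is 1 library from 1 tumour-derived line, and the sources used here do not say whether the control medium was changed alongside. The title of the series names NRF2, SLC7A11 and GPX4, proteins that limit lipid peroxidation, as the route under study.

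Of 60664 genes in the count table, 14272 had at least 20 counts in the control or the DSS library and are described here as the measured genes. Another 12926 genes were counted below 20 in both, and 33466 were at 0 in both. At the edge of this threshold, 119 genes had exactly 20 counts in the higher library, with a median log2 ratio of 0.04, and 122 genes had 19, with a median of 0.13. The control library held 18695613 counts, the DSS library 18825914 and the polydatin library 16667622. Levels are given in CPM, the usual depth-scaled unit, at which 1 CPM equals 18.2 counts in control and 18.5 in DSS. Where 3 CPM values follow a gene, they are those of the control, DSS and DSS with polydatin libraries, in that order. The polydatin value is described beside the others, as higher or lower in words only, and enters no ratio or count. Ratios are DSS over control, and the range in parentheses after a ratio is its exact 95% Clopper-Pearson interval. Intervals and floors cover counting error only, since there is 1 library a side and reads that carry no molecular identifier can be copies of the same molecule. No p-value can be given, and every difference is one between 2 libraries, without a replicate check.

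The libraries carried the markers of an intestinal epithelial line. Of 14 colonocyte markers, 11 were measured, and 0 differed by 1.5-fold with an interval that excluded 1. Their median log2 ratio was 0.28, in a range from -0.32 to 0.92. EPCAM, an epithelial adhesion protein, stood at 697, 789 and 648 CPM, and VIL1, the microvillus protein villin, at 461, 488 and 404 CPM. CDX1 was at 0 in all 3 libraries, and KRT20 and LGALS4 stayed below 20 counts in both libraries compared. Of 14 goblet, Paneth and endocrine cell markers, 4 were measured, with a summed level of 4.46 CPM in control and 11.9 in DSS. MUC2 had 0 counts in control and 2 in DSS, and DEFA5, DEFA6, CHGA, NEUROD1, SST, GCG and ATOH1 were at 0 in both libraries compared. LYZ, FCGBP and CHGB were the 3 higher members. The median log2 ratio of the 4 was 1.75, and it was -0.23 with genes of at least 1 count in either library added. In bulk RNA, fewer cells of a type and less transcript per cell cannot be told apart. Of 15 fibroblast, endothelial and immune markers, 9 were measured. At 1.5-fold with an interval that excluded 1, 2 of them were higher and 3 lower. Their summed level was 97.0 CPM in control and 77.4 in DSS, and PTPRC was at 0 in both. The 18 common reference genes had a median log2 ratio of 0.04, and 0 of them differed by 1.5-fold.

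Most genes stood close together in the libraries. The median log2 ratio over all measured genes was -0.01, and 11690 genes (81.9%) lay within 1.5-fold. Of the measured genes, 573 were at least 2-fold higher in DSS with an interval that excluded 1 (4.01%), and 251 were at least 2-fold lower (1.76%). At 1.5-fold, the fold used below to count members of gene groups, 1344 genes were higher (9.42%) and 849 were lower (5.95%). A gene past 1.5-fold with an interval that excluded 1 is named higher or lower from here on. At 4-fold there were 118 higher and 36 lower genes, and at 8-fold 29 and 7. The genes at least 2-fold higher held 0.785% of control counts and 2.18% of DSS counts. The 3 measured genes at 0 in control included CALB1, encoding the calcium-binding protein calbindin, with 25 counts in DSS. Its ratio was 8.17 with the control library set at a floor of 3 counts, a value that is not a lower bound.

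**Figure D1:**
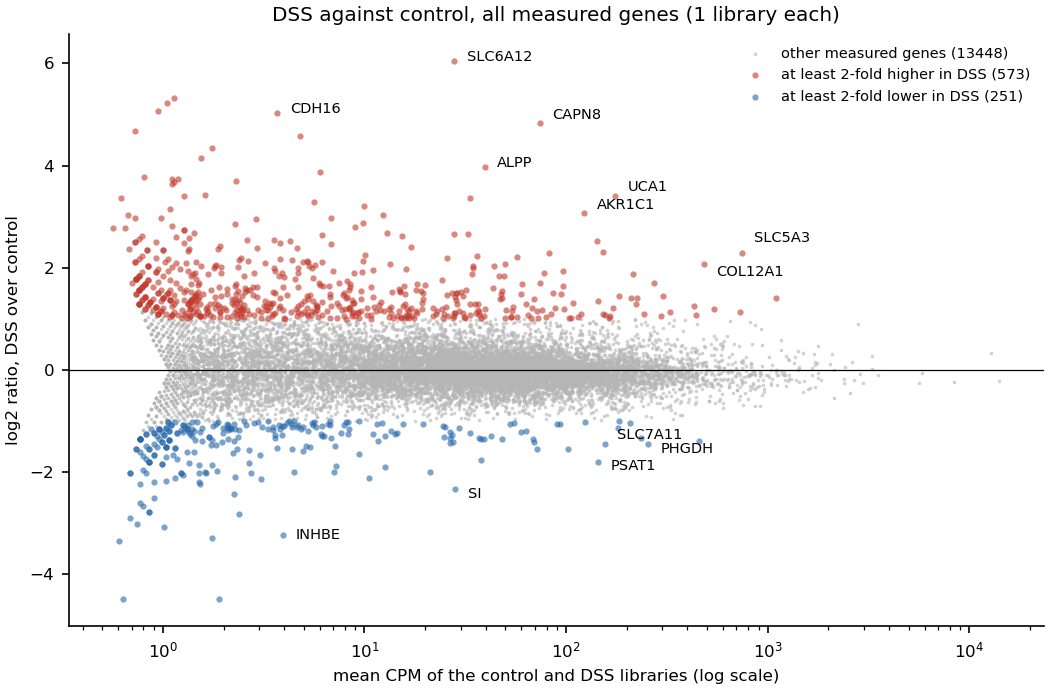
Each point is 1 of the 14272 measured genes, with its mean CPM in the control and DSS libraries on a log axis and its log2 ratio of DSS over control on the other. The 573 genes at least 2-fold higher (red) reach farther from 0 than the 251 lower ones (blue), and most genes of high level lie near 0.

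Gene classes differed in how often they were called. Protein-coding genes made up 12063 of the measured genes, with 453 at least 2-fold higher and 165 lower. Among 1353 long noncoding RNAs, 6.73% were at least 2-fold higher and 3.47% lower, and their median of 2.40 CPM leaves wider intervals than the 34.2 CPM of protein-coding genes. Pseudogenes leaned the other way, with 20 of 674 at least 2-fold higher, 31 lower and a median log2 ratio of -0.13. Level itself moved with the calls: 11.2% of protein-coding genes with 20 to 99 counts in the higher library were at least 2-fold higher, against 3.33% of those with 100 or more but under 1000. For genes of all other types together, the shares in these 2 ranges were 6.30% and 3.35%, and 4 of 59 with 1000 or more counts were higher. At 20 to 99 counts, 4.96% of the other types and 5.12% of coding genes were at least 2-fold lower. Long noncoding RNAs alone were not split by level. Single-exon coding genes were 1.5-fold higher in 13.1% of 404 cases, and spliced ones in 9.22% of 11654.

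The GC content of the transcript moved with the ratio. Among protein-coding genes split into 5 equal classes by the GC percent of their longest transcript, the median log2 ratio was -0.12 in the lowest class and 0.23 in the highest. In the lowest class 3.65% of genes were 1.5-fold higher and 8.25% lower, and in the highest class 18.2% were higher and 2.03% lower. Chromosome 19 had a median log2 ratio of 0.14 and chromosome 4 one of -0.11. Transcript length moved little with the ratio, with medians between -0.02 and 0.01 in its 5 classes. With a smooth trend on GC content and length removed, 1090 genes were 1.5-fold higher and 840 lower. The part of GC content in any one gene's ratio was not tested, and calls or counts that end or change by more than 1.5 times with the trend removed are given beside the genes and lists below.

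**Figure D2:**
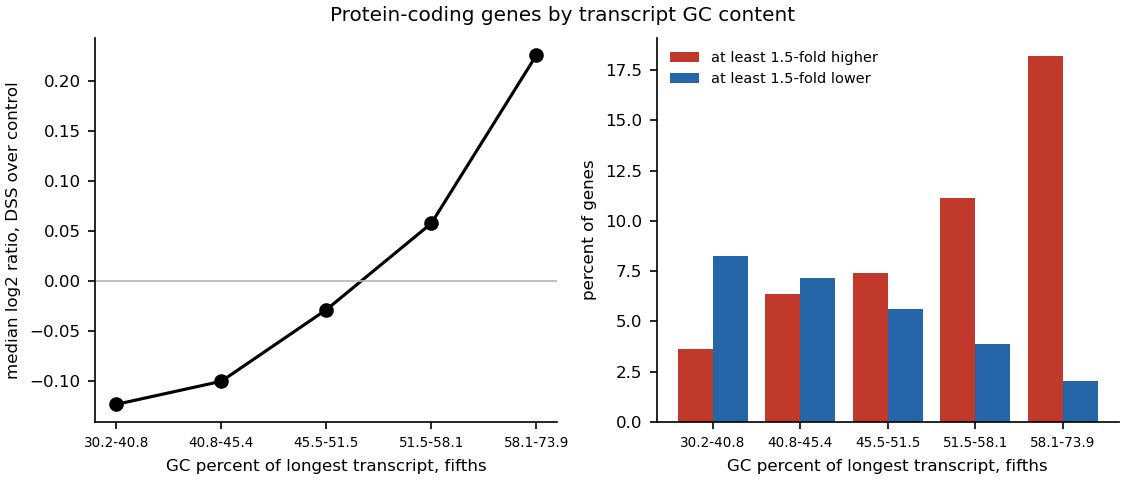
Protein-coding genes are split into 5 equal classes by the GC percent of their longest transcript (x axis). The left panel gives the median log2 ratio, from -0.12 to 0.23, and the right panel the percent of genes at least 1.5-fold higher (red) or lower (blue) in DSS.

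Gene lists were used to describe pathways and families, 110 in all, holding 3312 measured genes. Of 453 protein-coding genes at least 2-fold higher, 148 stood in a pathway list (32.7%), and of 165 lower ones 48 did (29.1%), against 16.0% of all measured protein-coding genes. The other 305 higher and 117 lower genes were in no pathway list. The lists were chosen with earlier results of these data known, so the gap between these shares is no support for any pathway. Shares of members called are to be read against 9.42% higher and 5.95% lower over all genes. In the plot of list shares, the tallest higher shares belonged to replication-dependent histones, cholesterol synthesis, hypoxia-responsive genes, osmolyte transport and aldo-keto reductases, the last with 7 measured members. The tallest lower shares belonged to cytosolic aminoacyl-tRNA synthetases, mitosis genes, serine and one-carbon enzymes and conjugating transferases.

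**Figure D3:**
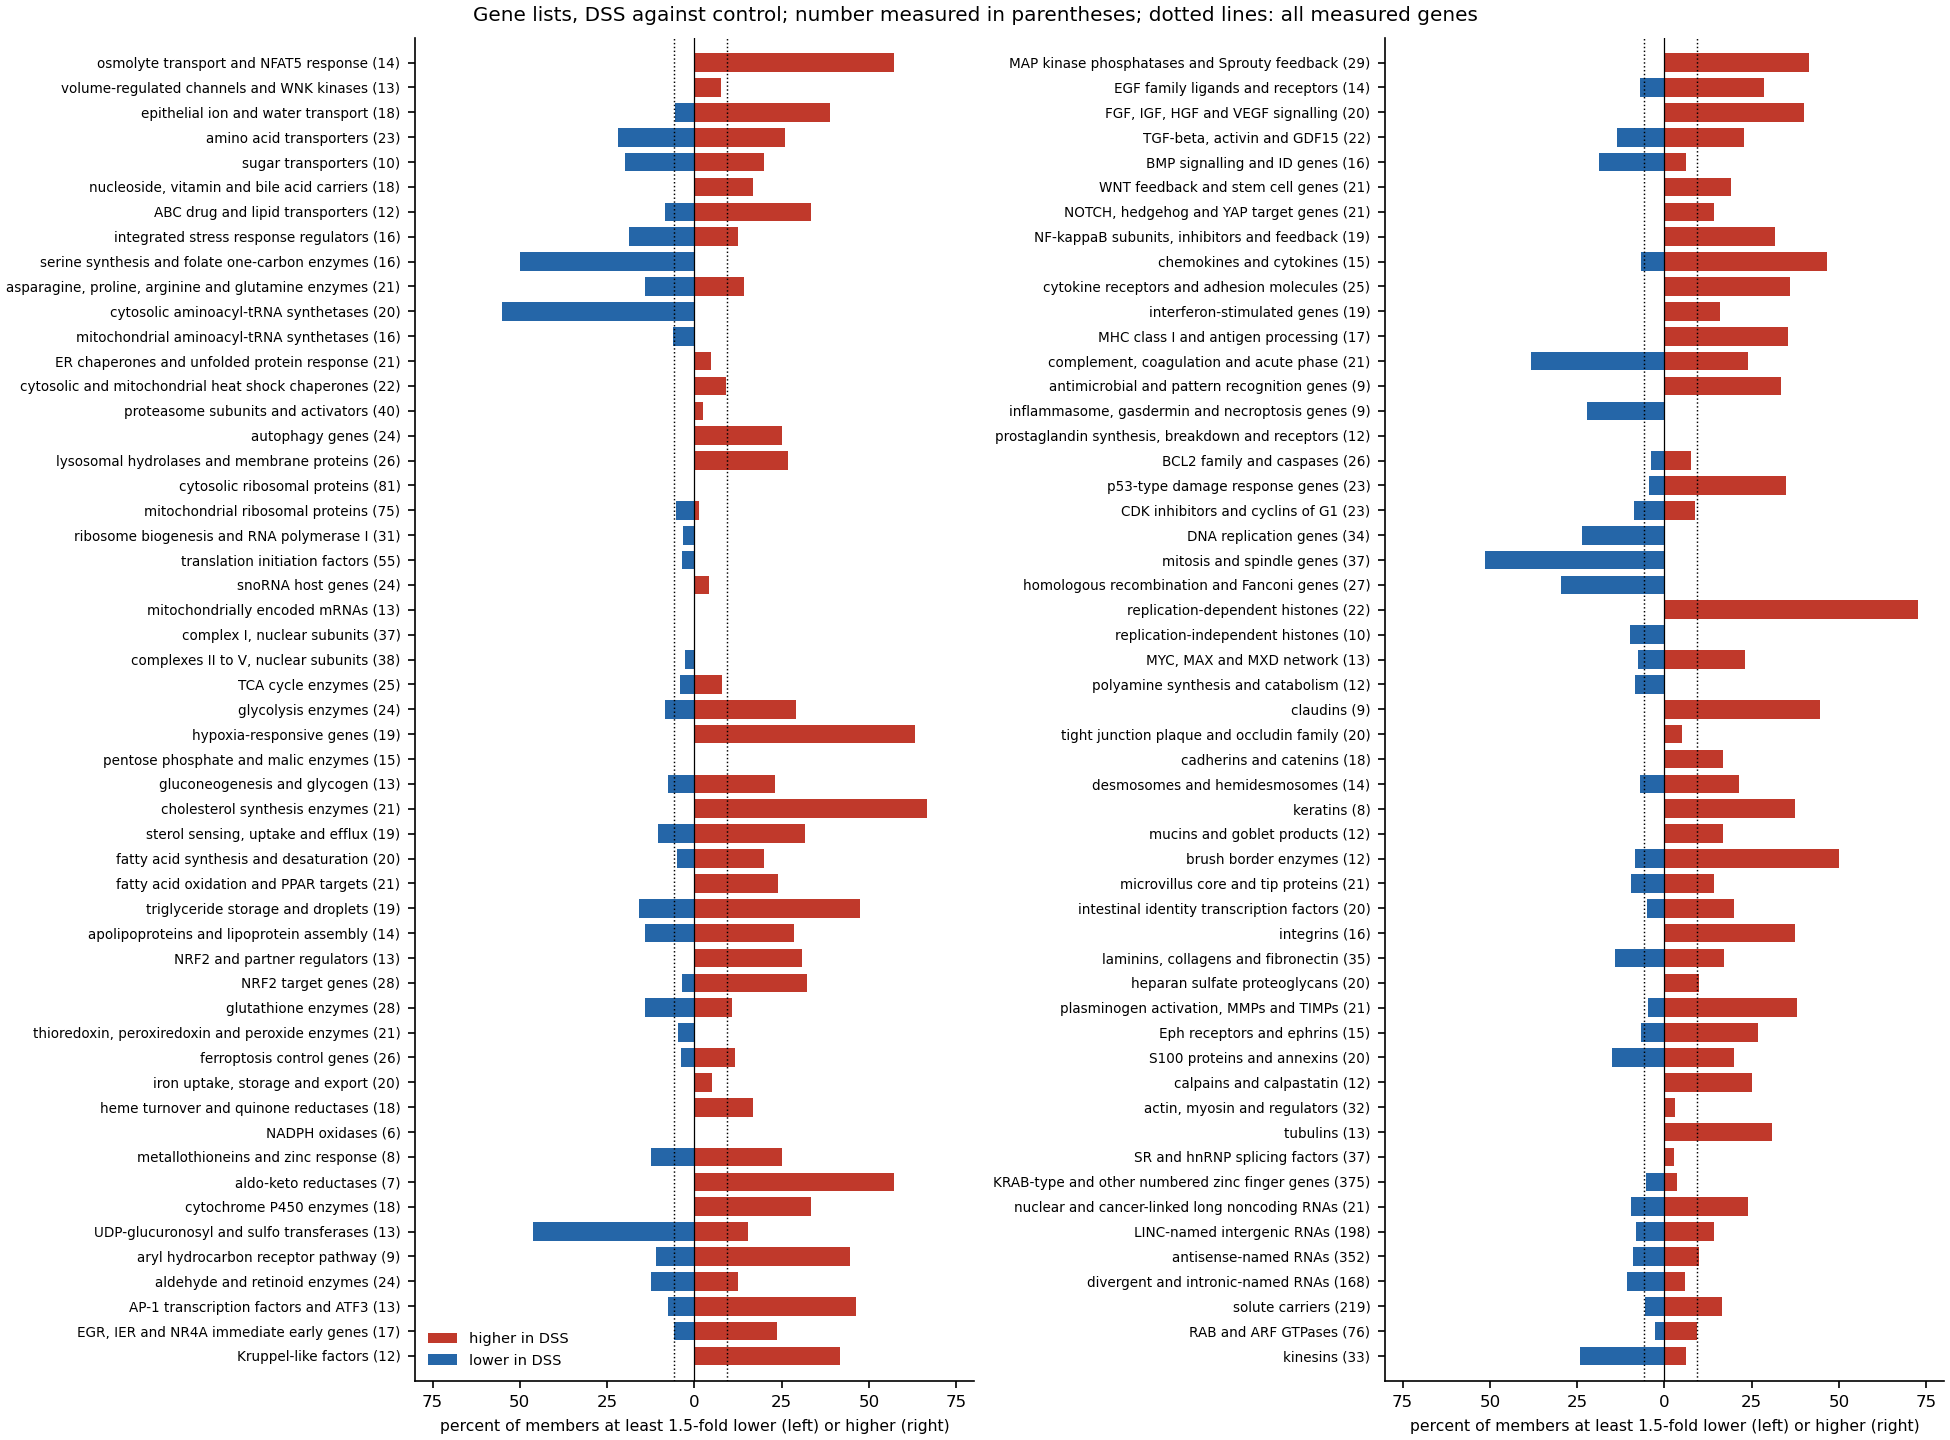
Bars give, for each of 106 gene lists, the percent of measured members at least 1.5-fold lower (blue, to the left) or higher (red, to the right) in DSS, with the number measured in parentheses. Dotted lines mark 5.95% and 9.42%, the shares over all measured genes.

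Cells in medium of raised osmolality take up or make small organic solutes such as betaine, myo-inositol, taurine and sorbitol, and the transcription factor NFAT5 drives many of the genes involved. Of 14 measured genes of this response, 8 were higher and 0 lower, with a median log2 ratio of 0.68. SLC6A12 (ENSG00000111181, chr12:190077-214570), the betaine carrier, had 15 counts in control, 1016 in DSS and 1271 with polydatin, and its ratio was 66.4 (40.1 to 119). SLC5A3, the myo-inositol carrier, stood at 251, 1235 and 1536 CPM, a ratio of 4.91 (4.76 to 5.07). Both libraries with DSS were high for these carriers, and the control was low. PNPLA6, a phospholipase that yields the osmolyte glycerophosphocholine, stood at 13.9, 55.3 and 69.3 CPM, a ratio of 3.97 (3.46 to 4.57). AKR1B1, aldose reductase, which makes sorbitol, had a ratio of 1.72 (1.53 to 1.93), and SLC38A2, a sodium-coupled neutral amino acid carrier, one of 1.84 (1.80 to 1.88). NFAT5 itself was 1.64 (1.57 to 1.71) times its control level. SLC6A6, the taurine carrier, stayed under 1.5-fold at 1.41 (1.34 to 1.49), and so did SLC22A5, a carnitine carrier, at 1.05 (0.928 to 1.18). The names NFAT5, SLC6A6 and SLC22A5 were taken up after their values were seen. An NFAT5-type motif was in 0 of 10 matched promoters of the list, in 3.92% of measured coding genes and in 5.12% of all promoters, counted on both strands from 250 bases before to 50 after the start. No match says only that these letters are not in the window.

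SLC5A3 lies within the bounds of MRPS6 (chr21:34073224-34143034), a mitochondrial ribosomal protein gene with a ratio of 2.84 (2.62 to 3.08). How reads in overlapping genes were counted is not given, so reads of this pair cannot be told apart. SLC6A12 overlaps 2 other genes. Chloride- and volume-sensing kinases moved less: of 13 volume-regulated channel and WNK kinase genes, only WNK4 was higher, at 2.91 (2.28 to 3.74), and WNK1 stood at 0.988.

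Ion and water transport genes of the epithelium were higher in 7 of 18 cases and lower in 1. AQP3, a water and glycerol channel, stood at 13.2, 30.4 and 43.1 CPM, a ratio of 2.30 (1.97 to 2.69). KCNK5 and KCNE3, which serve basolateral potassium exit, had ratios of 2.01 (1.78 to 2.28) and 1.92 (1.72 to 2.14). ATP1B1, a subunit of the sodium pump, was 1.76 (1.69 to 1.83) times its control level. CFTR, the apical chloride channel, was the 1 lower member, at 77.3 CPM in control and 48.6 in DSS.

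Amino acid carriers went both ways: 6 of 23 were higher and 5 lower. SLC6A20, a carrier of proline and related imino acids, had 41 counts in control and 292 in DSS, a ratio of 6.98 (5.02 to 9.93), and SLC7A8, a carrier of neutral amino acids, one of 2.79 (2.58 to 3.01). SLC1A4, which carries serine and alanine, stood at 38.8, 14.4 and 31.2 CPM, a ratio of 0.372 (0.322 to 0.429). SLC43A1 was 0.315 (0.196 to 0.491) of control and SLC7A1, the arginine and lysine carrier, 0.579 (0.551 to 0.608). Among other carriers, SLC46A1, the proton-coupled folate carrier, was higher at 2.11 (2.04 to 2.18) and SLC29A2, a nucleoside carrier, at 2.17 (1.93 to 2.45). The glucose carrier SLC2A1 stood at 672, 1174 and 629 CPM, a ratio of 1.75 (1.71 to 1.79), while SLC2A3 was level at 1.00 (0.988 to 1.02). Of the drug and lipid pumps, 4 of 12 were higher, led by ABCA3 at 2.58 (2.01 to 3.34) and ABCC2, the apical exporter of conjugates, at 1.98 (1.89 to 2.08). ABCA1, which exports cholesterol, was lower, with 60 counts in control and 27 in DSS, a ratio of 0.441 (0.269 to 0.706).

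**Figure D4:**
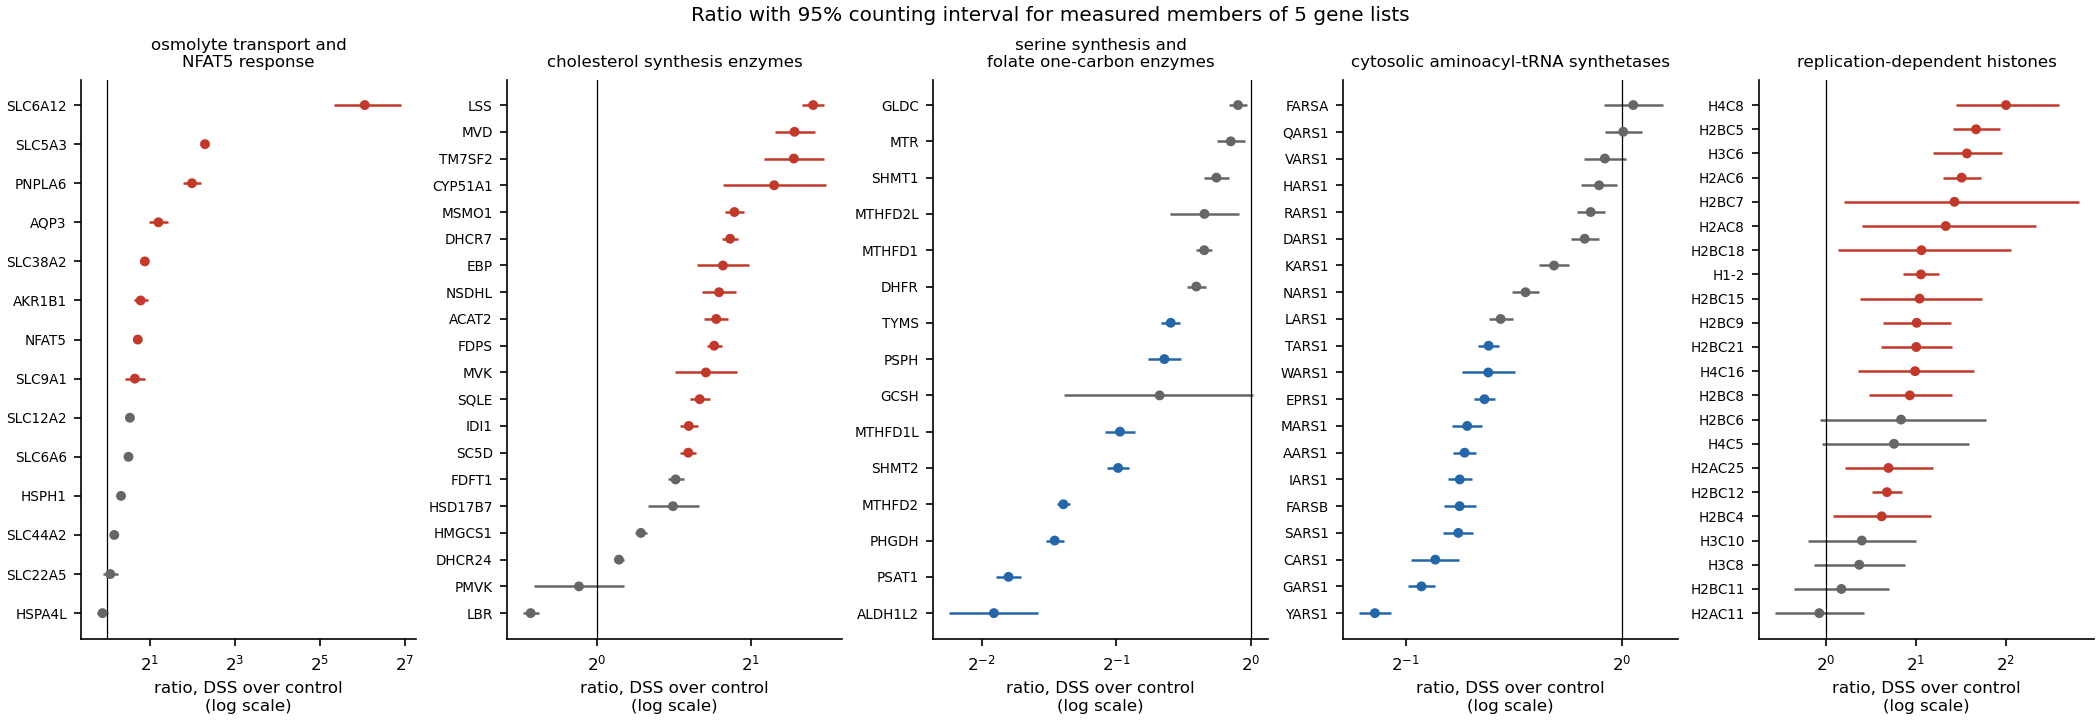
Points give the ratio of DSS over control on a log axis for measured members of 5 gene lists, with horizontal lines for the 95% counting interval. Red marks members at least 1.5-fold higher and blue members at least 1.5-fold lower with an interval that excludes 1. The osmolyte list has 8 higher members, the cholesterol list 14 and the histone list 16. The serine list has 8 lower members and the synthetase list 11.

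When amino acids are short or the endoplasmic reticulum is stressed, cells phosphorylate the initiation factor eIF2 and translate ATF4, which turns on genes for amino acid supply, tRNA charging and glutathione turnover. The called genes of serine synthesis and tRNA charging all stood lower in the DSS library. Of 16 measured enzymes of serine synthesis and folate one-carbon metabolism, 0 were higher and 8 lower, with a median log2 ratio of -0.62. MTHFD2, a mitochondrial folate enzyme, stood at 664, 253 and 368 CPM, a ratio of 0.381 (0.368 to 0.394). SHMT2, which splits serine into glycine, was 0.505 (0.477 to 0.534) of control and MTHFD1L, which makes formate in mitochondria, 0.510 (0.472 to 0.551), both named after their values were seen.

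Cytosolic aminoacyl-tRNA synthetases, which load amino acids onto tRNAs, were lower in 11 of 20 cases and higher in 0, with a median log2 ratio of -0.62. YARS1, for tyrosine, stood at 250.2, 113 and 108 CPM, a ratio of 0.453 (0.430 to 0.477). GARS1, for glycine, stood at 346, 182 and 211 CPM, and CARS1, for cysteine, at 102, 56.3 and 69.7 CPM. Their summed level over the list was 4869 CPM in control and 3285 in DSS. QARS1 and FARSA, for glutamine and a phenylalanine subunit, were level, at 1.00 (0.947 to 1.07) and 1.04 (0.945 to 1.14). TARS1, for threonine, was 0.652 (0.630 to 0.675) of control, a call that was lost with the GC and length trend removed. Of 16 synthetases of mitochondria 0 were higher and 1 was lower.

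Other enzymes of amino acid supply went both ways, with 3 of 21 asparagine, proline, arginine and glutamine genes higher and 3 lower. BCAT1, which transaminates branched-chain amino acids, stood at 153, 52.4 and 59.7 CPM, a ratio of 0.343 (0.319 to 0.369), and PCK2, the mitochondrial enzyme that makes phosphoenolpyruvate, at 107, 36.2 and 59.7 CPM, a ratio of 0.339 (0.310 to 0.370). The control was the highest of the 3 libraries for both. ASNS, asparagine synthetase, had only 61 counts in control and 20 in DSS, a ratio of 0.321 (0.184 to 0.540). ALDH18A1, the first enzyme of proline synthesis, was higher at 1.96 (1.88 to 2.03). Of 16 regulators of the response, 2 were higher and 3 lower, which became 1 and 4 with the GC and length trend removed. DDIT4, an inhibitor of mTORC1, was 0.393 (0.349 to 0.442) of control, SESN2, a leucine sensor, 0.537 (0.467 to 0.618), and NUPR1 had 31 counts in control and 7 in DSS. ATF3 stood at 14.4, 30.7 and 63.7 CPM, a ratio of 2.13 (1.84 to 2.47), and ATF4 mRNA at 0.830 (0.806 to 0.855). EIF4EBP1, a brake on cap-dependent translation, stood at 60.5, 24.7 and 27.6 CPM, a ratio of 0.409 (0.366 to 0.456).

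Bases upstream of the start of AARS1, for alanine, with a ratio of 0.604 (0.582 to 0.627), and of PSAT1, the serine-pathway transaminase at 225, 64.6 and 77.9 CPM, are shown because motifs of these groups lie there. The AARS1 stretch is chr16:70289544-70289756, minus strand, and the PSAT1 stretch chr9:78296875-78297124, plus strand, both from RefSeq on GRCh38.p14. Bases that GENCODE release 29 places inside the gene were left off. In AARS1 the capitals mark the ATF4-type motif TGATGNAA, read on the opposite strand, 187 to 180 bases before the RefSeq start. In PSAT1 they mark 3 matches of the CCAAT box.
AARS1: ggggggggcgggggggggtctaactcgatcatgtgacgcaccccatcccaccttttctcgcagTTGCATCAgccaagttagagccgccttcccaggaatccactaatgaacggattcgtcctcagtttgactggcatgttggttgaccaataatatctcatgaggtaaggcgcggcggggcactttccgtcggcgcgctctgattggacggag
PSAT1: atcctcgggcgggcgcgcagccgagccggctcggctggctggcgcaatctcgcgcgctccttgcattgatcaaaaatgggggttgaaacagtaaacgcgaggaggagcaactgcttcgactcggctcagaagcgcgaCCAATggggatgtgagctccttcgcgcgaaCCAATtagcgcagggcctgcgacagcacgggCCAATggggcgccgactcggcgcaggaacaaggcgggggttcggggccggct
Motifs were counted on both strands in windows of 250 bases before to 50 after the start. TGATGNAA was in 37.5% of 16 matched synthetase promoters, in 1.65% of 9825 matched promoters of measured coding genes and in 3.67% of all 27305 promoters in the table. CCAAT was in 81.8% of 11 serine and one-carbon promoters, 37.2% of measured coding genes and 35.7% of all. TGATGNAA was in 9.09% of the same 11. A match describes the letters only.

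Few genes of the protein-folding and translation machinery were called. Of 21 endoplasmic reticulum chaperones and unfolded protein response genes, only SYVN1 was 1.5-fold higher and 0 were lower, and the call of SYVN1, at 1.55 (1.36 to 1.78), was lost with the GC and length trend removed. HSPA1A and HSPA1B, near-identical copies of inducible HSP70, were the 2 higher members of a heat shock list of 22, at 1.93 (1.77 to 2.10) and 1.99 (1.76 to 2.25). In the same list HSPD1, the mitochondrial chaperonin, stood at 0.685 (0.675 to 0.694). Of 40 proteasome genes 1 was higher. Of 81 cytosolic ribosomal proteins 0 were called either way (1 higher with the GC and length trend removed), with a median log2 ratio of -0.07. Mitochondrial ribosomal proteins had a median of -0.21. Ribosome biogenesis genes had one of -0.18, with NPM1, a nucleolar chaperone, at 0.730 (0.721 to 0.740). The 13 mitochondrially encoded mRNAs summed to 54575 CPM in control and 48423 in DSS, and 0 of 37 nuclear complex I subunits were called.

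Lysosomes and autophagy break down cell contents, and the called genes of both were all higher. Of 26 lysosomal genes 7 were higher and 0 lower, with a median log2 ratio of 0.39, and of 24 autophagy genes 6 and 0. CTSD, the protease cathepsin D, stood at 16.6, 45.3 and 59.6 CPM, a ratio of 2.74 (2.39 to 3.13). NEU1, lysosomal sialidase, stood at 129, 315 and 438 CPM, a ratio of 2.45 (2.33 to 2.57). SQSTM1, the cargo receptor p62, stood at 163, 442 and 704 CPM, a ratio of 2.71 (2.60 to 2.83), and OPTN, a second receptor, had one of 2.02 (1.86 to 2.20). All 4 of these genes were lowest in the control library. NPC1, which moves cholesterol out of lysosomes, was 1.75 (1.61 to 1.89) times control, and WIPI1, an early autophagosome protein, 2.22 (1.81 to 2.72).

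Hypoxia-responsive genes, many driven by HIF-1, were higher in 12 of 19 cases and lower in 0, with a median log2 ratio of 0.71. BNIP3, a mitophagy receptor, stood at 31.0, 69.9 and 57.2 CPM, a ratio of 2.25 (2.04 to 2.49). NDRG1 stood at 96.6, 207 and 193 CPM, a ratio of 2.15 (2.03 to 2.27), and VEGFA, the vascular growth factor, at 225, 426 and 514 CPM, a ratio of 1.89 (1.82 to 1.96). Glycolytic enzymes were higher in 7 of 24 cases and lower in 2. The isozymes ALDOC and ENO2 stood at 2.44 (2.17 to 2.76) and 2.48 (2.10 to 2.93), LDHA, lactate dehydrogenase, at 1.5 (1.47 to 1.53), and HK1, a hexokinase, was lower at 0.625 (0.561 to 0.696). ALDOA is listed with only 13 counts in control and 42 in DSS. PC and PCK1, the entry enzymes of gluconeogenesis, had ratios of 2.60 (2.20 to 3.08) and 2.67 (1.72 to 4.24), and of 15 pentose phosphate and malic enzymes 0 were called.

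When membrane sterol is low, SREBP2 raises the genes of cholesterol synthesis and uptake, and SREBP1 those of fatty acid synthesis. Of 21 measured cholesterol synthesis enzymes 14 were higher and 0 lower, with a median log2 ratio of 0.71. MSMO1, a sterol methyl oxidase, stood at 165, 307 and 326 CPM, a ratio of 1.86 (1.78 to 1.94), DHCR7, the last enzyme of the pathway, at 1.82 (1.76 to 1.89) and CYP51A1, lanosterol demethylase, at 2.22 (1.77 to 2.81). The early enzyme HMGCS1 was at 1.22 (1.19 to 1.25), below 1.5-fold. Of 19 genes of sterol sensing, uptake and efflux 6 were higher and 2 lower. INSIG1, which holds SREBP in the endoplasmic reticulum, stood at 107, 217 and 296 CPM, a ratio of 2.02 (1.92 to 2.14), with control the lowest of the 3 libraries. SREBF2 mRNA was at 1.38 (1.33 to 1.44).

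The stretch upstream of LSS, lanosterol synthase, at 115, 306 and 358 CPM, is shown for its CCAAT box (capitals, opposite strand), chr21:46228825-46229024, minus strand, RefSeq on GRCh38.p14.
LSS: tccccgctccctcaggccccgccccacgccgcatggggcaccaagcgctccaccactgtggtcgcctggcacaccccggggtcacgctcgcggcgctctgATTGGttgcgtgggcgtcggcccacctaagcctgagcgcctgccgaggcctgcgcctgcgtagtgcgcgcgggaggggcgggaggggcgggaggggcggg
CCAAT was in 75% of 16 matched cholesterol enzyme promoters against 37.2% of measured coding genes. The SREBP-type motif TCACNCCAC was in 0 of the 16 and in 1.09% of measured coding genes. It was in 1.15% of all promoters, and no match says only that these letters are not in the window.

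Of 20 fatty acid synthesis genes 4 were higher and 1 lower, falling to 2 higher with the GC and length trend removed. ACSS2, which turns acetate into acetyl-CoA, stood at 122.9, 324 and 403 CPM, a ratio of 2.64 (2.51 to 2.77). FASN, fatty acid synthase, stood at 262, 513 and 555 CPM, a ratio of 1.96 (1.89 to 2.03), and its call was among those lost. Triglyceride storage genes were higher in 9 of 19 cases and lower in 3. MGLL, a monoglyceride lipase, stood at 14.5, 53.4 and 58.8 CPM, a ratio of 3.69 (3.22 to 4.24), LPIN2, a phosphatidate phosphatase, at 2.11 (2.00 to 2.24), and G0S2, which inhibits the lipase ATGL, at 0.334 (0.234 to 0.470). CREB3L3, a gut and liver transcription factor of lipid metabolism, had 66 counts in control and 296 in DSS, a ratio of 4.40 (3.36 to 5.83). APOE and APOA2 had ratios of 1.93 (1.83 to 2.03) and 1.79 (1.70 to 1.90), and APOH one of 0.590 (0.479 to 0.724).

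NRF2 is a transcription factor held down by KEAP1 that drives detoxifying and antioxidant genes together with small MAF proteins. Of 28 measured targets 9 were higher and 1 lower, with a median log2 ratio of 0.46. GPX2, the gut glutathione peroxidase, stood at 51.6, 254 and 254 CPM, a ratio of 4.93 (4.6 to 5.30), equal in both DSS libraries and low in control. TXNRD1, thioredoxin reductase, stood at 264, 379 and 611 CPM, a ratio of 1.43 (1.38 to 1.49), under 1.5-fold, and NQO1, a quinone reductase, at 439, 668 and 606 CPM, a ratio of 1.52 (1.48 to 1.56). The small MAF genes MAFF, MAFK and MAFG had ratios of 3.09 (2.45 to 3.93), 2.27 (1.96 to 2.63) and 1.93 (1.74 to 2.15). The 1 lower target was the cystine carrier SLC7A11, at 227, 83.6 and 145 CPM. Of 13 regulators 4 were higher and 0 lower, NFE2L2, which encodes NRF2, stood at 1.31 (1.25 to 1.38) and KEAP1 at 1.27 (1.17 to 1.38). The NRF2-type motif TGACNNNGC was in 31.6% of 19 matched target promoters, 15.1% of measured coding genes and 13.6% of all.

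Among the other redox lists, the thioredoxin, iron and NADPH oxidase lists held few calls. Shares over all measured genes were 9.42% higher and 5.95% lower. Of 28 glutathione enzymes 3 were higher and 4 lower, with GPX1 at 0.549 (0.472 to 0.638) and GSTA2 at 0.569 (0.493 to 0.655). Of 21 thioredoxin, peroxiredoxin and peroxide enzymes 0 were higher and 1 lower, and the 6 measured NADPH oxidase genes held 0 calls. Of 20 iron genes 1 was higher and 0 lower, with TFRC, the transferrin receptor, at 1.19 (1.17 to 1.21). Of 26 ferroptosis control genes 3 were higher and 1 lower, and GPX4 stood at 0.889 (0.837 to 0.944). Median log2 ratios were -0.12 for the glutathione list, -0.20 for the thioredoxin list, 0.21 for iron, 0.25 for NADPH oxidases and 0.11 for ferroptosis control. Of 18 heme turnover and quinone reductase genes 3 were higher and 0 lower.

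Drug metabolism runs through oxidising and conjugating enzymes. Oxidising cytochrome P450 genes were higher in 6 of 18 cases and lower in 0. CYP1A1, whose gene answers to planar aromatic compounds, stood at 20.2, 93.5 and 39.2 CPM, a ratio of 4.64 (4.14 to 5.21), highest in the DSS library without polydatin. CYP3A5, a major intestinal P450, stood at 32.9, 122 and 179.8 CPM, a ratio of 3.71 (3.39 to 4.07). Of 24 aldehyde and retinoid enzymes 3 were higher and 3 lower, with a median log2 ratio of -0.20. Of 13 glucuronosyl and sulfo transferases, which attach polar groups to drugs and hormones, 2 were higher and 6 lower. UGT2B17 had 69 counts in control and 13 in DSS, a ratio of 0.185 (0.0936 to 0.337), SULT1E1, an estrogen sulfotransferase, a ratio of 0.245 (0.142 to 0.404), and UGT2B15 one of 0.336 (0.204 to 0.535). These are low counts: with at least 200 counts required, 4 of the transferases remained, of which 1 was higher and 1 lower, and the median log2 ratio went from -0.58 to 0.15. UGT2B17 and UGT2B15 are close copies whose reads the counting could split, and UGT1A6, at 1.53 (1.47 to 1.59), overlaps 15 genes.

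Growth factor and stress signals reach the nucleus through MAP kinases and AP-1, and DUSP and Sprouty proteins feed back on the kinases. Of 29 feedback genes 12 were higher and 0 lower (1 lower with the GC and length trend removed), with a median log2 ratio of 0.39. DUSP8, a phosphatase of stress kinases, had 27 counts in control and 143 in DSS, a ratio of 5.19 (3.42 to 8.15). DUSP1 stood at 15.3, 41.2 and 77.9 CPM, a ratio of 2.69 (2.34 to 3.10), and DUSP3 and DUSP16 had ratios of 1.71 (1.62 to 1.81) and 1.63 (1.54 to 1.71). Of 13 AP-1 genes 6 were higher and 1 lower: JUN stood at 15, 42.6 and 66.5 CPM, a ratio of 2.84 (2.47 to 3.28), JUND had a ratio of 2.87 (2.51 to 3.30), FOSB one of 4.00 (2.15 to 7.99), and JDP2, a repressing partner, one of 0.464 (0.402 to 0.535). Control was lowest for JUN and DUSP1.

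Of 17 EGR, IER and NR4A immediate early genes 4 were higher and 1 lower, 7 higher with DESeq2 size factors, with a median log2 ratio of 0.26. IER3, a survival factor, HBEGF, a ligand of the EGF receptor, and ZFP36, which destabilises cytokine mRNAs, had ratios of 2.76 (2.39 to 3.21), 2.87 (2.36 to 3.50) and 2.30 (1.94 to 2.75). EGR1, an early growth response factor and the 1 lower member, stood at 69.2, 27.0 and 46.4 CPM, a ratio of 0.391 (0.352 to 0.434), lowest in DSS. Among EGF family ligands and receptors 4 of 14 were higher and 1 lower. ERRFI1, an inhibitor of EGF receptors, stood at 127, 60.6 and 76.0 CPM, a ratio of 0.479 (0.445 to 0.514). The ligand AREG was at 158, 287 and 319 CPM, a ratio of 1.82 (1.74 to 1.90), and TGFA had 6 counts in control and 25 in DSS, a ratio of 4.08 (1.64 to 12.2). Of 16 BMP signalling and ID genes 1 was higher (0 with the GC and length trend removed) and 3 lower, with a median log2 ratio of 0.08 and a mean of -0.15. The lower ones were ID1, ID2 and ID3, inhibitors of differentiation factors, at 0.392 (0.359 to 0.428), 0.536 (0.507 to 0.566) and 0.396 (0.264 to 0.583). ID1 stood at 98.2, 38.5 and 16.8 CPM, and the antisense-named ID2-AS1 beside ID2 was at 0.420 (0.345 to 0.508), reads that cannot be told apart from those of ID2 where they overlap. TGF-beta, activin and GDF15 genes went both ways: 5 of 22 were higher and 3 lower. Their median log2 ratio was 0.08, in a range from -3.23 to 2.65. FSTL3, which binds activin, stood at 19.2, 80.5 and 112 CPM, a ratio of 4.20 (3.73 to 4.73), and TGFB1 and the matrix protein TGFBI had ratios of 1.95 (1.71 to 2.21) and 1.94 (1.84 to 2.04). Of 21 WNT feedback and stem cell genes 4 were higher and 0 lower, 2 lower with the GC and length trend removed, and the median log2 ratio was -0.05 against a mean of 0.12. NOTUM, a secreted inhibitor of WNT, had 26 counts in control and 106 in DSS, a ratio of 4.00 (2.58 to 6.40). LGR5, a stem cell marker, was 1.64 (1.51 to 1.79) times control. SFRP5, a secreted WNT inhibitor outside this list, had 19 counts in control and 190 in DSS, a ratio of 9.80 (6.11 to 16.6). Of 20 FGF, IGF, HGF and VEGF pathway genes 8 were higher, and 4 with the GC and length trend removed.

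**Figure D5:**
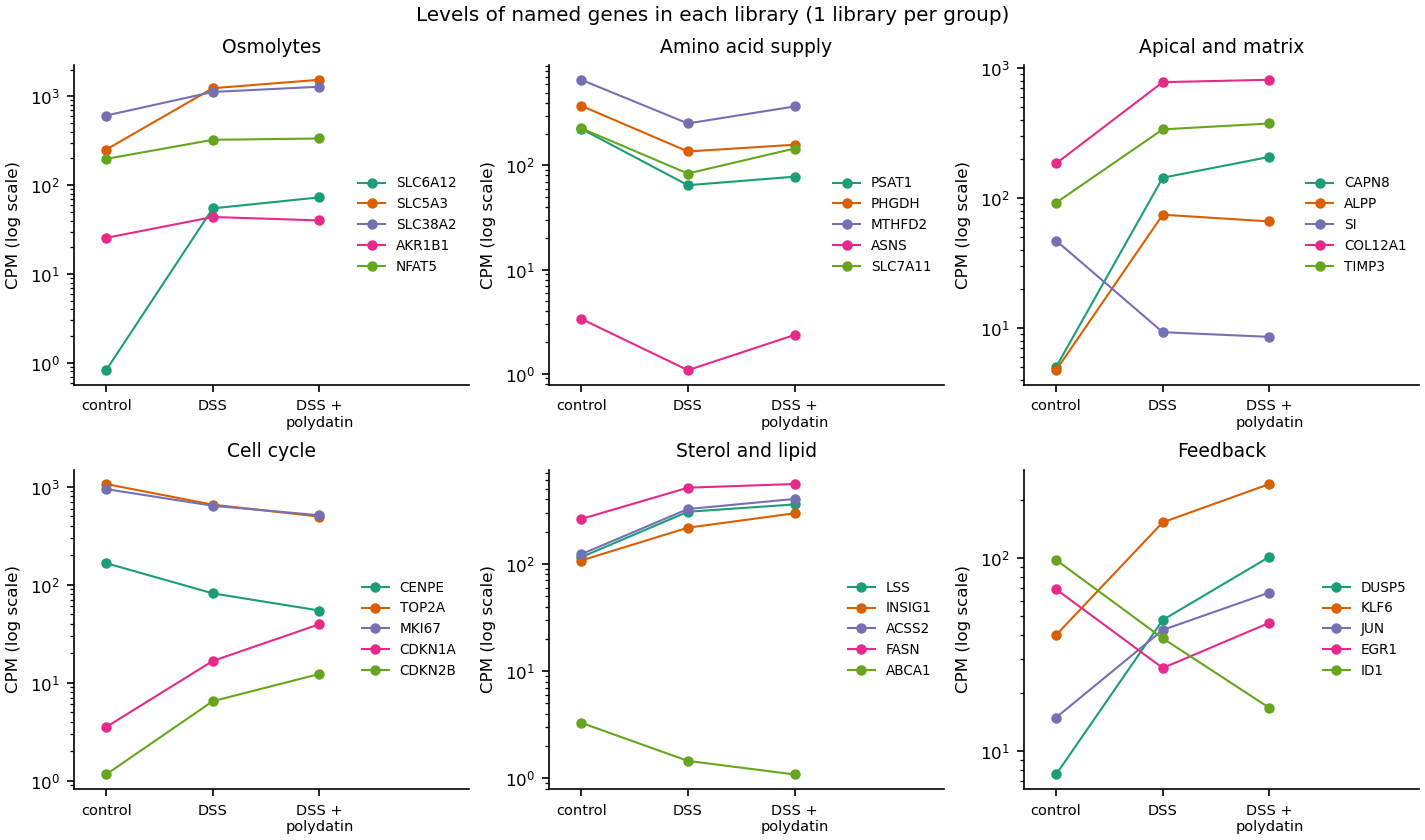
CPM of named genes in the control, DSS and DSS with polydatin libraries on a log axis, 1 library each, with lines joining the values of 1 gene. SLC6A12 stands at 66.4 times its control level in DSS, while PSAT1, EGR1, ID1, SI and the cell cycle genes CENPE, TOP2A and MKI67 are lower in DSS than in control.

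NF-κB factors are held in the cytosol by IκB proteins, whose genes they induce in turn. Of 19 subunits, inhibitors and feedback genes 6 were higher and 0 lower (1 lower with the GC and length trend removed). NFKBIA, encoding IκBα, stood at 18.1, 36.6 and 49.3 CPM, a ratio of 2.02 (1.77 to 2.31), and RELB, NFKB2 and BIRC3 had ratios of 2.49 (1.67 to 3.80), 1.90 (1.63 to 2.22) and 1.77 (1.52 to 2.06). The stretch upstream of NFKBIA is shown with its match to an NF-κB-type motif (3 G, 2 A, 3 bases of any kind and 2 C) in capitals, on the opposite strand, 81 to 72 bases before the start, at chr14:35404750-35404999, minus strand, RefSeq on GRCh38.p14.
NFKBIA: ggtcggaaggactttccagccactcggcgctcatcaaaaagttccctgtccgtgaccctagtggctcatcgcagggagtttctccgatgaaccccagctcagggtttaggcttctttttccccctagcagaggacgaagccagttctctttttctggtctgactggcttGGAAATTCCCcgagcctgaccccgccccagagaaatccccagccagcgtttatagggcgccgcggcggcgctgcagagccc
This motif was in 29.4% of 17 matched promoters of the list, 8.01% of measured coding genes and 6.92% of all.

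Of 15 measured chemokines and cytokines 7 were higher and 1 lower, most at low counts. IL15, a growth factor of lymphocytes in the epithelium, had 3 counts in control and 41 in DSS, a ratio of 13.4 (4.27 to 67.6). TNFSF15 and CX3CL1 had 36 counts in control and 136 in DSS and 37 counts in control and 130 in DSS. IL18, which epithelial cells store, was lower, at 25.2, 16.4 and 31.3 CPM, a ratio of 0.650 (0.560 to 0.753), and the call was lost with the GC and length trend removed. IL6R and TNFRSF1B, receptors for IL-6 and TNF, had ratios of 2.44 (1.75 to 3.45) and 2.28 (1.77 to 2.96). Antigen presentation genes were higher in 6 of 17 cases and lower in 0: TAPBP, which loads peptides onto MHC class I, stood at 38.1, 100.1 and 127 CPM, a ratio of 2.63 (2.41 to 2.87), and the stress ligands ULBP2 and MICA at 2.41 (1.95 to 2.99) and 1.72 (1.55 to 1.91). Among 19 interferon-stimulated genes 3 were higher and 0 lower. GBP2, a guanylate-binding protein, had 49 counts in control and 409 in DSS, a ratio of 8.18 (6.07 to 11.2), and OAS1 a ratio of 2.01 (1.75 to 2.32). LYZ, lysozyme, had 14 counts in control and 83 in DSS, and TLR2, a receptor of bacterial lipopeptides, a ratio of 2.24 (1.81 to 2.77). Of 12 prostaglandin genes 0 were called (1 lower with the GC and length trend removed), and GSDME, a pore-forming gasdermin, was 0.577 (0.532 to 0.626) of control.

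Plasma protein genes that Caco-2 cells share with hepatocytes split. Of 21 complement, coagulation and acute phase genes 5 were higher and 8 lower. SERPINA1, the protease inhibitor alpha-1-antitrypsin, stood at 128, 416 and 396 CPM, a ratio of 3.25 (3.10 to 3.4), C3 had 75 counts in control and 236 in DSS, a ratio of 3.08 (2.37 to 4.05), and VTN, vitronectin, a ratio of 2.14 (2.01 to 2.28). C5, a later complement component, stood at 11.3, 3.08 and 5.22 CPM, a ratio of 0.271 (0.199 to 0.365). AHSG, fetuin-A, stood at 35.5, 14.4 and 8.03 CPM, a ratio of 0.404 (0.349 to 0.467), and FGB, the fibrinogen beta chain, at 83.3, 35.8 and 39.8 CPM, a ratio of 0.430 (0.392 to 0.472). Fibrinogen genes FGB, FGA and FGG are neighbours on chromosome 4, from 154562956 to 154612967, and were all lower.

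Genes that cells switch on to copy DNA and divide had log2 ratios below 0, and those called were lower. Of 34 replication genes 8 were lower and 0 higher, with all 34 log2 ratios below 0 and a median of -0.49. PRIM1, a primase subunit, stood at 31.4, 17.3 and 19.6 CPM, a ratio of 0.552 (0.480 to 0.634), RRM1, of ribonucleotide reductase, at 314, 198 and 201 CPM, a ratio of 0.629 (0.604 to 0.656), and PCNA, the sliding clamp, at 0.787 (0.762 to 0.813). Of 37 mitosis and spindle genes 19 were lower and 0 higher, with a median log2 ratio of -0.65. NDC80, which ties chromosomes to microtubules, stood at 122, 58.1 and 50.5 CPM, a ratio of 0.476 (0.442 to 0.512). HMMR, a spindle protein, stood at 206, 112 and 78.0 CPM, a ratio of 0.545 (0.516 to 0.575), TOP2A, which untangles DNA, at 1068, 657 and 497 CPM, a ratio of 0.615 (0.602 to 0.630), and MKI67, the proliferation marker Ki-67, at 947, 641 and 512 CPM, a ratio of 0.677 (0.661 to 0.693). Control was the highest of the 3 libraries for each of them. Homologous recombination and Fanconi genes were lower in 8 of 27 cases, among them BRCA1 at 0.589 (0.551 to 0.629) and RAD51C at 0.584 (0.519 to 0.657), while ATM was level at 1.01 (0.961 to 1.05). Outside these lists, SMC1B, a cohesin subunit best known from meiosis, had 91 counts in control and 21 in DSS, a ratio of 0.226 (0.134 to 0.367).

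CDK inhibitors and G1 cyclins, which set the pace of entry into the cell cycle, were higher in 2 of 23 cases and lower in 2. CDKN2B, encoding the inhibitor p15, had 21 counts in control and 120 in DSS, a ratio of 5.6 (3.50 to 9.38). MXD1, which opposes MYC and is outside this list, had a ratio of 1.80 (1.56 to 2.07). Of 23 p53-type damage response genes 8 were higher and 1 lower (2 lower with the GC and length trend removed), with PLK2 at 1.96 (1.75 to 2.19) and TP53INP1 at 1.86 (1.68 to 2.07), while MDM2, a direct p53 target, was level at 0.975 (0.914 to 1.04). Of 26 BCL2 family and caspase genes 2 were higher and 1 lower, which became 1 and 2 with the GC and length trend removed. BIK, which promotes apoptosis, had 27 counts in control and 106 in DSS, a ratio of 3.85 (2.5 to 6.11). MYC stood at 163, 217 and 120.3 CPM, a ratio of 1.33 (1.27 to 1.40), and its target ODC1, the first enzyme of polyamine synthesis, at 248, 156 and 104 CPM, a ratio of 0.630 (0.601 to 0.661).

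Bases upstream of TOP2A and KIF11, a spindle motor at 207, 127 and 111 CPM, are shown because 2 motifs tied to cell cycle genes lie there. Capitals mark TTTGAA, the letters of a cell cycle homology region, and CCAAT, each on either strand. The stretches are chr17:40417951-40418146, minus strand, and chr10:92592880-92593129, plus strand, RefSeq on GRCh38.p14.
TOP2A: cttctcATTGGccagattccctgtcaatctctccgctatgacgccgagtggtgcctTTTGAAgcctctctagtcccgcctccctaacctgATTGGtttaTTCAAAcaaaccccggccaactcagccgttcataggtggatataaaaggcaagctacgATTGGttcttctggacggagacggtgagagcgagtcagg
KIF11: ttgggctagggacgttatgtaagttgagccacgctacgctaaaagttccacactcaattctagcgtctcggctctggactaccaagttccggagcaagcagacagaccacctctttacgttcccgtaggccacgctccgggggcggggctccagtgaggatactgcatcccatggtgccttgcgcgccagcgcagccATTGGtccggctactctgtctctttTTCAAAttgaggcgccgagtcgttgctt
In KIF11 the TTTGAA match lies 28 to 23 bases before the start and CCAAT 53 to 49 bases before it. TTTGAA was in 66.7% of 30 matched mitosis promoters, 9.73% of measured coding genes and 15.4% of all, and CCAAT in 70.0% of the 30.

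Replication-dependent histone genes went against the other S-phase genes. In all 22 of 68 such genes were measured, 16 were higher and 0 lower, and the median log2 ratio was 1.00. H4C8 had 34 counts in control and 139 in DSS, a ratio of 4.01 (2.74 to 6.02), and H3C6 had 77 counts in control and 233 in DSS, a ratio of 2.97 (2.28 to 3.89). H1-2, a linker histone named after its value was seen, had a ratio of 2.08 (1.81 to 2.39). H2BC12 stood at 28.1, 45.1 and 32.0 CPM, a ratio of 1.60 (1.43 to 1.79), a call lost with the GC and length trend removed. Their mRNAs normally lack a poly(A) tail, and the summed level was 113 CPM in control and 233 in DSS. With at least 200 counts required in either library, 5 genes remained and all were higher. A gene can pass that filter through its DSS count alone, as H3C6 does, so this is no separate support. With at least 1 count, 56 genes were held, still with 16 higher, and the median log2 ratio was 0.39. The replication-independent histones had 1 of 10 lower, H2AZ1 at 0.647 (0.627 to 0.668). Histone genes are near-identical copies, so the counting could split or drop reads among them. The stretch upstream of H2BC5, at 8.70, 27.7 and 33.0 CPM, is shown with its 4 CCAAT boxes in capitals, at chr6:26157871-26158120, plus strand, RefSeq on GRCh38.p14.
H2BC5: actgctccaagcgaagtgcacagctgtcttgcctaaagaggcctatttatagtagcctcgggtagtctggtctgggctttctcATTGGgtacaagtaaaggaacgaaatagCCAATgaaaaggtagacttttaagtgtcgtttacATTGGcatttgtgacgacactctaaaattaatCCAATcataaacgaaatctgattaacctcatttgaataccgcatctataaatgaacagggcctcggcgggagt
CCAAT was in 86.4% of the 22 histone promoters.

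Junction and brush border genes describe how absorptive cells seal and face the lumen. Of 24 claudin genes 9 were measured, 4 higher and 0 lower, and with low-count genes added the median log2 ratio went from 0.53 to 0.00. CLDN7 stood at 38.2, 73.1 and 81.8 CPM, a ratio of 1.91 (1.75 to 2.10), and CLDN1 at 147, 213 and 231 CPM, a ratio of 1.44 (1.37 to 1.52), under 1.5-fold. The plaque proteins that anchor claudins held 1 higher of 20, and 0 with the GC and length trend removed, and TJP1, ZO-1, at 1.08 (1.04 to 1.12). CDH1, E-cadherin, was at 1.19 (1.16 to 1.22), and PKP2, a desmosomal plaque protein, was lower at 536, 338 and 245 CPM, a ratio of 0.630 (0.610 to 0.650). MYO1A, the brush border myosin, stood at 17.6, 38.2 and 40.4 CPM, a ratio of 2.17 (1.89 to 2.48), and BAIAP2L2, of the microvillus tip, at 2.16 (1.83 to 2.56), while RDX, radixin, was 0.579 (0.558 to 0.601) of control. Of 12 measured brush border enzymes 6 were higher and 1 lower, and with low-count genes added their median log2 ratio went from 0.57 to -0.03. MGAM2, a relative of the brush border enzyme maltase-glucoamylase, had 34 counts in control, 149 in DSS and 57 with polydatin, a ratio of 4.30 (2.94 to 6.43). Of 8 measured keratins 3 were higher, KRT15 at 2.09 (1.69 to 2.60), and KRT8 and KRT18 were at 1.21 (1.2 to 1.23) and 1.23 (1.22 to 1.25). The median log2 ratio of the keratins went from 0.40 to -0.28 with low-count genes added. ELF3, an epithelial transcription factor, stood at 29.7, 58.9 and 73.4 CPM, a ratio of 1.98 (1.78 to 2.20), and HNF4A at 1.40 (1.35 to 1.45). Of 12 mucin and goblet genes 2 were higher and 0 lower, with a median log2 ratio of 0.08. The higher ones were FCGBP, a mucus protein, with 3 counts in control and 62 in DSS, and MUC1, a membrane mucin, with 8 counts in control and 42 in DSS.

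Matrix and adhesion genes went both ways. Integrins were higher in 6 of 16 cases and lower in 0. ITGB8, which activates TGF-beta, stood at 9.20, 41.9 and 58.3 CPM, a ratio of 4.56 (3.85 to 5.42), ITGA3, a laminin receptor chain, at 1.98 (1.76 to 2.22), and ITGB1 was level at 1.02 (0.990 to 1.05). Of 35 laminins, collagens and fibronectin 6 were higher and 5 lower, and the median log2 ratio of 0.20 turned to -0.10 with the GC and length trend removed. COL12A1, a collagen that bridges fibrils, stood at 184, 777 and 811 CPM, a ratio of 4.22 (4.06 to 4.38), and FN1, fibronectin, at 330.1, 757 and 912 CPM, a ratio of 2.29 (2.22 to 2.36). The basement membrane chains COL4A1 and COL4A2 stood at 14.3, 4.53 and 4.59 CPM and 7.99, 2.81 and 3.90 CPM, ratios of 0.318 (0.245 to 0.408) and 0.351 (0.251 to 0.486), and LAMA1 at 451, 230.4 and 149 CPM, a ratio of 0.511 (0.493 to 0.531). Control was lowest for COL12A1 and FN1 and highest for COL4A1, COL4A2 and LAMA1.

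Matrix proteases and their inhibitors are counted together. Of 21 plasminogen activation, metalloprotease and inhibitor genes 8 were higher and 1 lower. TIMP3, a matrix-bound inhibitor of metalloproteases, stood at 91.9, 337 and 374 CPM, a ratio of 3.67 (3.47 to 3.87), and TIMP2 at 75, 154 and 206 CPM, a ratio of 2.06 (1.93 to 2.20). PLAU, urokinase, had 29 counts in control and 132 in DSS, a ratio of 4.46 (2.97 to 6.92). SULF2, which trims sulfates from heparan sulfate, stood at 10.1, 28.7 and 25 CPM, a ratio of 2.83 (2.39 to 3.37), and EPHA2, a receptor of ephrins, at 44.5, 98.6 and 133 CPM, a ratio of 2.22 (2.04 to 2.41). S100A6 and S100A4, calcium-binding neighbours on chromosome 1, had ratios of 4.06 (3.59 to 4.61) and 2.92 (2.40 to 3.56), and S100P one of 0.396 (0.297 to 0.524). Of 32 actin, myosin and regulator genes only ZYX, the focal adhesion protein zyxin, was higher, at 1.87 (1.71 to 2.04). Among tubulins TUBA1A had 35 counts in control and 332 in DSS, a ratio of 9.30 (6.55 to 13.6), and TUBB and TUBA1B stood at 0.853 (0.839 to 0.868) and 0.812 (0.797 to 0.828); tubulin genes are close copies. CAPN14, a calpain protease, had 6 counts in control and 41 in DSS, and the widely expressed CAPN2 was at 0.920 (0.892 to 0.949).

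By the counting bound nearest to 1, the 15 leading higher coding genes were SLC6A12, CAPN8, ALPP, CDH16, CLTRN, ALPG, AKR1C1, TUBA1A, SFRP5, GBP2, GDF15, AKR1C2, DUSP5, SLC6A20 and ADGRF2, with ratios from 5.73 to 66.4. The 15 leading lower ones were INHBE, SI, FGG, GPX8, PSAT1, ALDH1L2, EPHA4, CHAC1, C5, SMC1B, GNG2, BCAT1, PCK2, PHGDH and SLC7A11, with ratios from 0.106 to 0.368. Among them ADGRF2, an adhesion G protein-coupled receptor, stood at 3.47, 22.3 and 22.2 CPM, a ratio of 6.44 (4.93 to 8.54), and GNG2, a G protein gamma subunit, at 7.16, 1.78 and 1.2 CPM, a ratio of 0.249 (0.164 to 0.367). Long noncoding RNAs were also found at both ends. NEAT1, the scaffold RNA of nuclear paraspeckles, stood at 459, 1002 and 1514 CPM, a ratio of 2.18 (2.13 to 2.24), and MIR22HG at 15.7, 33.7 and 48.2 CPM, a ratio of 2.15 (1.86 to 2.48). IGFL2-AS1, which overlaps 2 other genes, had 12 counts in control and 95 in DSS. LINC01559 and LINC03061 had ratios of 7.34 (5.33 to 10.3) and 4.89 (4.44 to 5.39), and HOXA-AS2 and CASC9 were lower at 0.518 (0.447 to 0.599) and 0.402 (0.242 to 0.649). Of 352 measured antisense-named RNAs 35 were higher and 32 lower. Among 375 numbered zinc finger genes 14 were higher and 20 lower, with 13 lower once the GC and length trend was removed. Solute carriers were higher in 36 of 219 cases and lower in 12, and kinesins, the motors of microtubules, in 2 and 8 of 33.

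Called genes sometimes lay side by side. Runs of at least 3 neighbouring measured coding genes, all 1.5-fold higher, numbered 18 (3 of them of 4 genes), and runs of lower genes numbered 6. Among all measured coding genes 9.35% were higher and 5.37% lower, so some runs would arise in any order. How many a random order would hold was not tested. Higher runs held AKR1C1, AKR1C2 and AKR1C3 on chromosome 10, from 4963253 to 5107686, the histones H2BC8, H2AC8, H3C6 and H2BC9 on chromosome 6, from 26215159 to 26253710, and CYB5B, NFAT5 and NQO1 on chromosome 16, from 69424525 to 69726951. The lower runs included UGT2B17, UGT2B15 and UGT2A3 on chromosome 4, from 68537184 to 68951791. The call of UGT2A3 was lost with the GC and length trend removed and with DESeq2 size factors, so this run ends under both. These bounds are from GENCODE release 29 on GRCh38. Near-identical neighbours such as AKR1C1 and AKR1C2 can share reads.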

How the data were processed

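Per the labels' protocols, Trizol was used for RNA and a VAHTS Universal V6 kit for the libraries. HISAT2 and GRCh38 are named in the submitters' processing notes without versions. Which program counted reads, with which annotation and strandedness, is not given in the sources used here. Whole-number read counts per gene, which the authors deposited, are the only unit used. Every column was mapped, with 0 left over. Of 60664 gene IDs, 60652 carried a symbol and 58396 were found in GENCODE release 29.

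Counts were scaled with TMM factors from all 3 libraries (edgeR 4.0.16, R 4.3.3), and ratios got exact 95% Clopper-Pearson intervals (scipy 1.17.1, Python 3.11.15), a step tested on simulated data. A gene was counted at 1.5-fold or 2-fold when its interval excluded 1. Totals of 16667622 to 18825914 counts make 20 counts about 1.1 CPM, where intervals are wide. DESeq2 1.42.0 and statsmodels 0.14.6 served alternatives, and matplotlib 3.10.9 the plots. The labels name 1 library per group, so no model across genes was fitted.

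Named genes were the 15 leading coding genes each way by the bound nearest 1 at 5 CPM or more, 6 of other types, up to 4 called members each way and the 2 of highest level per list, and NFE2L2, KEAP1, SLC7A11 and GPX4. AARS1, QARS1, FARSA, EPCAM and any gene said to be so were chosen after their values were seen. Members and lists were chosen with earlier results of these data known. Promoters came from RefSeq's GRCh38.p14 table. Some named genes are not reported here.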

Additional observations from a re-analysis of the deposited data

How the results depend on the processing

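No paired analysis was possible because each group is 1 library. The 4 counts of genes, at 1.5-fold and 2-fold in each direction, were recomputed under 8 alternatives and stayed within 1.5 times under 7 of them. These 7 are not 7 separate checks. TMM factors from the 2 libraries alone gave the same 4 counts as reported. DESeq2 size factors were 1 for both libraries. Thinning the DSS library to the control total took it only from 18825914 to 18695613 counts. With at least 200 counts required in either library, 9715 genes were left, of which 214 were at least 2-fold higher and 56 lower, and 668 at least 1.5-fold higher and 423 lower, a smaller set by construction. There 79.3% of 2-fold calls were higher, against 69.5% as reported. With the GC and length trend removed, 513 genes were 2-fold higher and 250 lower. Of 402 named genes called at 1.5-fold, 42 fell below that fold with this trend removed, 9 with DESeq2 size factors and 4 with total-count scaling. The median log2 ratio over all genes lay between -0.04 and 0.02 in all 9 settings. Depth limits the low genes: 20 counts is 1.10 CPM in control, and 1 library a side leaves the spread between cultures unknown.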
